A study of Mus musculus with 18 samples.

Results

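The genes described here are 10 genes of dopamine neurons, measured in mouse hypothalamus on 18 arrays. They are 10 of the 19937 genes that the arrays measured through a probeset annotated with 1 gene. For each gene the brightest such probeset over all arrays was taken, and each of the 10 had exactly 1. Transmitter synthesis and transport genes (Slc6a3, Slc18a2, Th and Ddc) were held apart from genes of midbrain-type identity (Nr4a2, Pitx3, En1, Aldh1a1 and Foxa2), with the receptor gene Drd2 beside them. The genes were chosen with their levels, ranges and correlations across these arrays in view, so those values are given as a description, without a test. The differences between genotype labels were not part of the rule for that choice and were tested. Earlier results of these data were known when the genes and the lists used below were chosen.

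Hypothalami were dissected from wild-type mice and from mice mutant for Wfs1, which encodes wolframin, a membrane glycoprotein of the endoplasmic reticulum. All groups share 1 background strain, called 129SV by the sample labels but 129S6 by the text on the series. The sources used here name neither the allele nor the sex or age of the mice. Each array carried 2 genotype labels, the ending of its title (ko or wt) and its genotype field (KO or WT), which agreed on 9 arrays and contradicted each other on 9. Groups are therefore written with the ending first and the field second. There were 5 ko/KO arrays, 5 ko/WT, 4 wt/KO and 4 wt/WT, numbered within a group only to name them.

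The 4 transmitter genes cover the life of dopamine in the cell. Tyrosine hydroxylase (Th) makes L-DOPA from tyrosine and is the rate-limiting step, and aromatic L-amino acid decarboxylase (Ddc) turns it into dopamine. The vesicular monoamine transporter VMAT2 (Slc18a2) loads dopamine into vesicles, and the dopamine transporter (Slc6a3) takes it back up after release. Ddc and Slc18a2 also serve serotonin neurons, and Slc18a2 serves histamine neurons. In the hypothalamus, dopamine neurons of the arcuate and periventricular nuclei are known for restraining prolactin release from the pituitary. The large dopamine groups of the substantia nigra and ventral tegmental area lie in the ventral midbrain, behind the hypothalamus. Midbrain dopamine neurons are specified and maintained by the transcription factors NR4A2 (Nurr1), PITX3, engrailed 1 (En1) and FOXA2, and a ventral subset of them makes the retinaldehyde dehydrogenase ALDH1A1.

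Values are log2 expression values as deposited. The median of all values on an array lay between 7.10 and 7.19, the lower quartile between 5.81 and 6.0 and the upper quartile between 8.53 and 8.63. Wfs1 itself ranged from 7.86 to 8.72. Its mean was 8.31 for the ending ko against 8.12 for wt, and 8.25 for field KO against 8.20 for WT, so it was lower under neither mutant label, and where its probeset lies relative to the mutation is not given. Every direction below is therefore one between arrays labelled in that way. Array ko/WT 4 stood apart with Xist at 5.93, against 10.31 or more elsewhere, and array wt/WT 3 with Ttr at 12.80, against 10.62 or less elsewhere. No label states that the arrays came from separate mice, so p-values cover the spread between these arrays alone, some of which may be technical.

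Because the 4 transmitter genes varied together across the arrays, the sequences just before their transcription starts are shown, 5′ to 3′ on the strand of the gene. They are from RefSeq, assembly GRCm38.p6, 250 bases ending at the base before the start. Capitals mark matches to any of 8 motifs searched on both strands. The windows lie at chr13:73536497-73536746 (plus strand) for Slc6a3, chr19:59260628-59260877 (plus strand) for Slc18a2, chr7:142899996-142900245 (minus strand) for Th and chr11:11898145-11898394 (minus strand) for Ddc, whose upstream start of 2 is used.
Slc6a3: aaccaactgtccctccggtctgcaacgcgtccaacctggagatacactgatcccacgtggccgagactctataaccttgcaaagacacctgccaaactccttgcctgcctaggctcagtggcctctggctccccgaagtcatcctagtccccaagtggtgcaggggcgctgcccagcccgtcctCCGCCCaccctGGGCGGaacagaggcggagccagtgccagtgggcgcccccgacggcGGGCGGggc
Slc18a2: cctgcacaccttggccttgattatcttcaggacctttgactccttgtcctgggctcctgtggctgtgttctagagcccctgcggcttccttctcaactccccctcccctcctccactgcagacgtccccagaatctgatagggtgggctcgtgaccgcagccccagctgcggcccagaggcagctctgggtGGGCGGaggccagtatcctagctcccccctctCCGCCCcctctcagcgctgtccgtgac
Th: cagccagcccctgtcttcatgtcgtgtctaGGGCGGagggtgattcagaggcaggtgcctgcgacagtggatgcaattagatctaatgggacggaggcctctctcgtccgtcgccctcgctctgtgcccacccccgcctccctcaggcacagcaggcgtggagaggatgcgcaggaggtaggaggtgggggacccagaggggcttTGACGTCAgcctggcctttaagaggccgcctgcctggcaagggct
Ddc: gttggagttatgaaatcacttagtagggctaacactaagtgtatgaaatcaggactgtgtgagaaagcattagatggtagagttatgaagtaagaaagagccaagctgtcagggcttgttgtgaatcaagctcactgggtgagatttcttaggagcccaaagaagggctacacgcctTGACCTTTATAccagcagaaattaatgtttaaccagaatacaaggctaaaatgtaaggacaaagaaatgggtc

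The windows share little by these motifs. Those of Slc6a3, Slc18a2 and Th are rich in G and C, at 66.0%, 64.0% and 64.4%, whereas that of Ddc holds 40.8%, beside a median of 52.4% over the 32851 windows of all genes. The GC box GGGCGG occurred 3 times before Slc6a3, 2 times before Slc18a2 and once before Th, and 8 of the 14 windows of the members had at least 1, against 32.7% of all windows. Th had the cyclic AMP response element TGACGTCA, which begins 45 bases before the start and is found in 1.55% of all windows. Ddc had AAAGGTCA, the element bound by NR4A receptors, on the opposite strand from 73 to 66 bases before the start, overlapped there by the TATA box letters TATAAA (68 to 63 bases before). The first was present in 1.34% of all windows and the second in 12.4%. Outside the printed windows, TATAAA was found for Nr4a2 and Foxa2. No member's window held TAATCC (the PITX type), TAATTA (the engrailed type) or the forkhead letters TGTTTAC and TGTTTGC, which 6.25%, 4.84%, 3.17% and 4.30% of all windows hold. All 10 members were matched to 14 windows, and a match of letters is not evidence of binding.

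Slc6a3 varied more between arrays than 99.9% of genes, from 9.06 to 10.75 with a median of 10.29, a 3.23-fold range on the linear scale. On the ko/KO arrays 1 to 5 its values were 10.56, 9.06, 10.32, 10.39 and 10.66, and on the ko/WT arrays 10.56, 9.50, 9.98, 10.72 and 10.05. On the wt/KO arrays they were 10.26, 10.65, 9.69 and 10.75, and on the wt/WT arrays 9.19, 9.35, 9.48 and 10.58. Its widest gap, 0.29, fell between 9.69 and 9.98, with 6 arrays below and 12 above. The low arrays were ko/KO 2, ko/WT 2, wt/KO 3 and wt/WT 1, 2 and 3, so each group held at least 1. In whole tissue, fewer dopamine neurons in a sample and less RNA per neuron cannot be told apart.

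Th followed the same arrays. Its values were 9.96, 8.93, 9.77, 10.01 and 9.79 on the ko/KO arrays and 9.89, 9.03, 9.67, 9.95 and 9.50 on the ko/WT arrays. They were 9.92, 9.92, 9.30 and 10.16 on the wt/KO arrays and 9.09, 9.25, 9.29 and 9.77 on the wt/WT arrays. Slc18a2 ranged from 8.76 (wt/WT 1) to 10.08 (wt/KO 4), with a median of 9.72, and Ddc from 8.83 (wt/WT 1) to 9.94 (ko/KO 5), with a median of 9.54. On arrays ko/KO 2 and wt/WT 1, 2 and 3, each of Slc6a3, Slc18a2, Th, Ddc, Drd2 and Aldh1a1 was among its own 6 lowest values, and on ko/WT 2 and wt/KO 3 this held for 5 of these 6 genes. The range from lowest to highest was 2.50-fold for Slc18a2, 2.35-fold for Th and 2.16-fold for Ddc, and each lay above the upper quartile of its array on all 18 arrays.

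**Figure D1:**
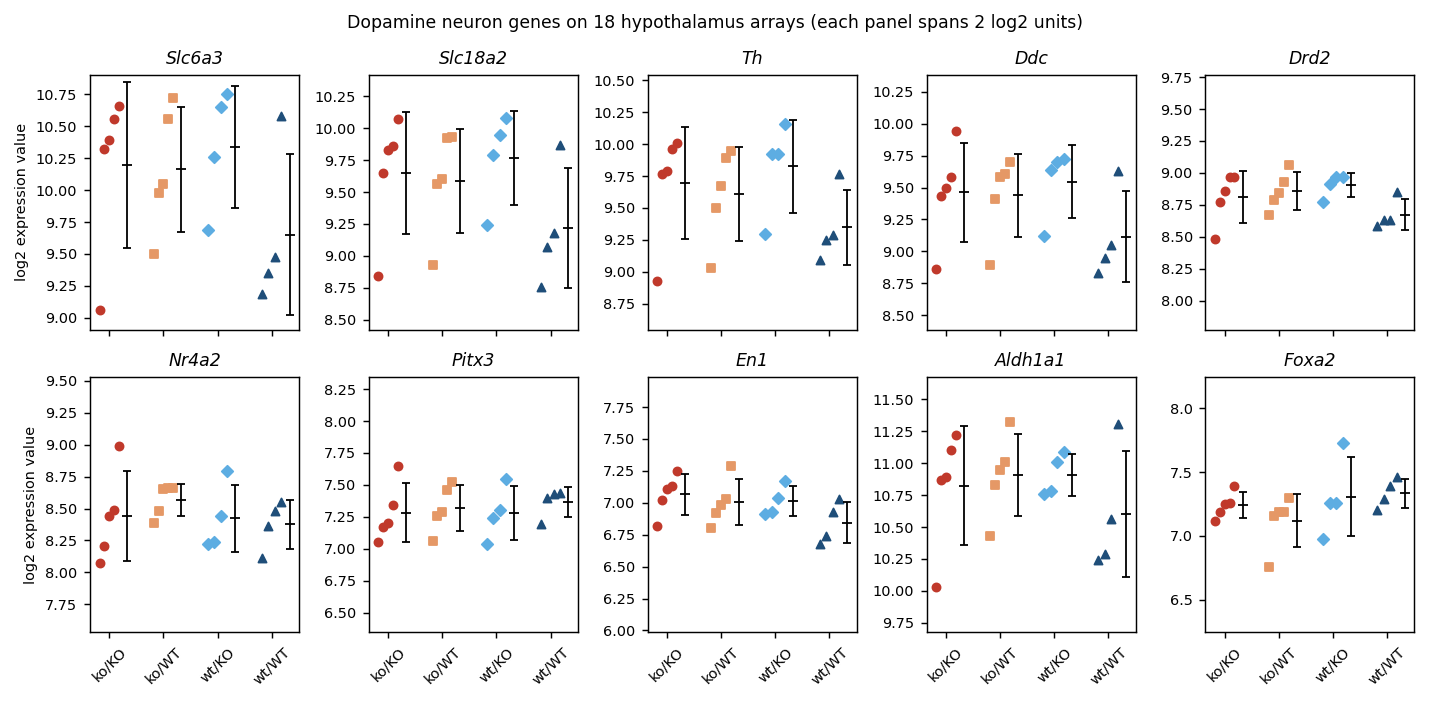
Deposited log2 values (vertical axis) of the 10 genes on each of the 18 arrays, grouped by title ending and genotype field, with 1 point per array and, beside the points, a bar for the group mean with its SD. Each panel spans 2 log2 units. Slc6a3, Slc18a2, Th, Ddc and Aldh1a1 are span more than 1 log2 unit across the arrays, whereas Pitx3, En1 and Foxa2 keep within 1 log2 unit.

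Drd2, the receptor that also acts as an autoreceptor on dopamine neurons, moved with these genes over a smaller range. It ran from 8.48 on ko/KO 2 to 9.06 on ko/WT 1, with a median of 8.84, a 1.49-fold range. It lay above the array's upper quartile on 17 of 18 arrays, and 69.1% of genes varied less than it did. Its slope on Slc6a3 was 0.24 log2 units per unit, against 0.75 for Slc18a2, 0.63 for Th and 0.57 for Ddc.

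Aldh1a1, listed among the identity genes, varied across arrays with the transmitter genes. On the ko/KO arrays it was 11.10, 10.03, 10.87, 10.89 and 11.22, and on the ko/WT arrays 10.95, 10.43, 10.83, 11.32 and 11.01. On the wt/KO arrays it was 10.76, 11.01, 10.78 and 11.09, and on the wt/WT arrays 10.24, 10.29, 10.56 and 11.31. It was lowest on ko/KO 2 and on wt/WT 1 and 2, where Slc6a3 was lowest too, and its slope on Slc6a3 was 0.60.

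The 4 transcription factor genes had other patterns. Nr4a2 was 8.99, 8.07, 8.21, 8.49 and 8.44 on the ko/KO arrays and 8.48, 8.39, 8.66, 8.66 and 8.65 on the ko/WT arrays. It was 8.44, 8.24, 8.79 and 8.22 on the wt/KO arrays and 8.48, 8.11, 8.55 and 8.36 on the wt/WT arrays. Its second highest value was on wt/KO 3, 1 of the 6 arrays low in Slc6a3. Pitx3 was 7.20, 7.65, 7.34, 7.05 and 7.17 on the ko/KO arrays and 7.46, 7.52, 7.26, 7.29 and 7.06 on the ko/WT arrays. It was 7.04, 7.30, 7.24 and 7.55 on the wt/KO arrays and 7.19, 7.40, 7.43 and 7.44 on the wt/WT arrays, so the array lowest in Slc6a3, ko/KO 2, was the highest in Pitx3. En1 was 7.02, 7.25, 7.11, 7.13 and 6.82 on the ko/KO arrays and 7.03, 6.92, 6.98, 7.29 and 6.80 on the ko/WT arrays. It was 6.93, 7.04, 6.91 and 7.17 on the wt/KO arrays and 6.74, 6.68, 6.93 and 7.03 on the wt/WT arrays. Foxa2 ranged from 6.76 (ko/WT 5) to 7.73 (wt/KO 4), with a median of 7.26. None of these 4 genes but Nr4a2, on 5 arrays, reached the upper quartile of an array. Pitx3 and Foxa2 lay above the array's median on 15 arrays each and En1 on 3, and no detection calls were analysed here, so whether these probesets were above background is not known.

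The pairwise correlations split along the same line. Among the 4 transmitter genes, the 6 pairs had a median Pearson r of 0.95 across the 18 arrays, from 0.89 to 0.98. Among the 5 identity genes, the 10 pairs had a median r of 0.08, from -0.53 to 0.42, and 5 were negative. Between the sets the median over 20 pairs was 0.19, and the 4 pairs above 0.5 were those of Aldh1a1. Without Aldh1a1 the 16 remaining pairs had a median of 0.15 and none above 0.41. The 6 genes Slc6a3, Slc18a2, Th, Ddc, Drd2 and Aldh1a1 had 15 pairs with r from 0.76 to 0.98. Within the arrays whose labels contradict each other, some pairs of Drd2 were lower, at 0.30 with Aldh1a1 and 0.53 with Ddc. All arrays share 1 laboratory protocol, so a factor common to an array enters every such r.

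**Figure D2:**
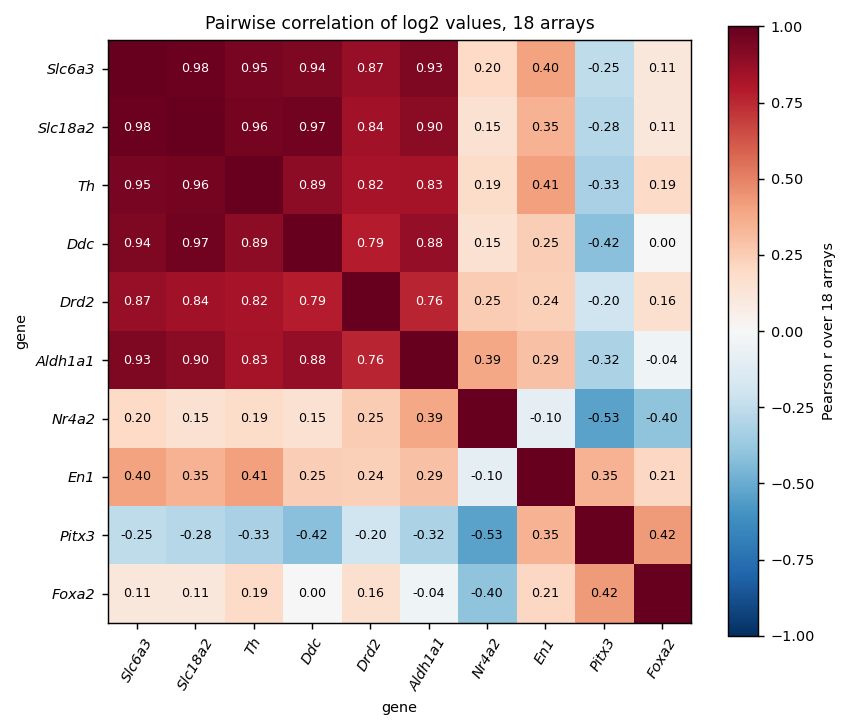
Pearson r across 18 arrays for every pair of the 10 genes, on a colour scale from -1 to 1. A block of 6 genes, Slc6a3, Slc18a2, Th, Ddc, Drd2 and Aldh1a1, stands at r of 0.76 or more, and Nr4a2, Pitx3, En1 and Foxa2 lie outside it.

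Set against Slc6a3, the order was Slc18a2 (r = 0.98, Spearman's rho = 0.98), Th (0.95, 0.86), Ddc (0.94, 0.88), Aldh1a1 (0.93, 0.92) and Drd2 (0.87, 0.81). Without ko/KO 2 and wt/WT 1, the arrays farthest from the Slc6a3 median, these r were 0.97, 0.92, 0.90, 0.89 and 0.80. They also stayed high among the 9 arrays whose labels agree (0.94 to 0.98) and the 9 whose labels contradict each other, where Drd2 was lowest at 0.71. Over all genes, r with Slc6a3 was above 0.5 for 11.5%, and for 5 of the other 9 members. With the other genes of this block in the place of Slc6a3, 5 members were again above 0.5 for each, beside 11.5% of all genes for Slc18a2, 8.28% for Th, 14.8% for Ddc, 6.67% for Drd2 and 14.6% for Aldh1a1. For Nr4a2, En1 and Foxa2 no member was, beside 9.17%, 1.88% and 4.77% of all genes. These shares are given as background only, since the correlations chose the genes. Of the 19936 other genes, Slc18a2 ranked 1 by r with Slc6a3, Th 3, Ddc 5, Aldh1a1 6 and Drd2 10.

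Nr4a2, Pitx3, En1 and Foxa2 stood at r = 0.20, -0.25, 0.40 and 0.11 with Slc6a3, and ranked 6280, 13879, 3603 and 7390. Leaving out each array in turn moved Nr4a2 between 0.02 and 0.29, Pitx3 between -0.38 and -0.05 and Foxa2 between -0.08 and 0.21. The r of En1 was 0.70 without array ko/KO 2, where Slc6a3 was 9.06 and En1 7.25. Within sets of arrays these values moved much further. Between the 10 arrays ending in ko and the 8 ending in wt, r was 0.55 and -0.34 for Nr4a2, -0.62 and 0.24 for Pitx3, -0.08 and 0.89 for En1 and 0.20 and 0.18 for Foxa2. Between the 9 agreeing and the 9 contradicting arrays, it was 0.45 and -0.44 for Nr4a2, -0.52 and 0.14 for Pitx3, 0.20 and 0.73 for En1 and -0.43 and 0.60 for Foxa2. Whether any of these r differ between sets was not tested. The pairs among these 4 genes were also mixed, with Nr4a2 and Pitx3 at -0.53, Nr4a2 and Foxa2 at -0.40, and Pitx3 and Foxa2 at 0.42.

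**Figure D3:**
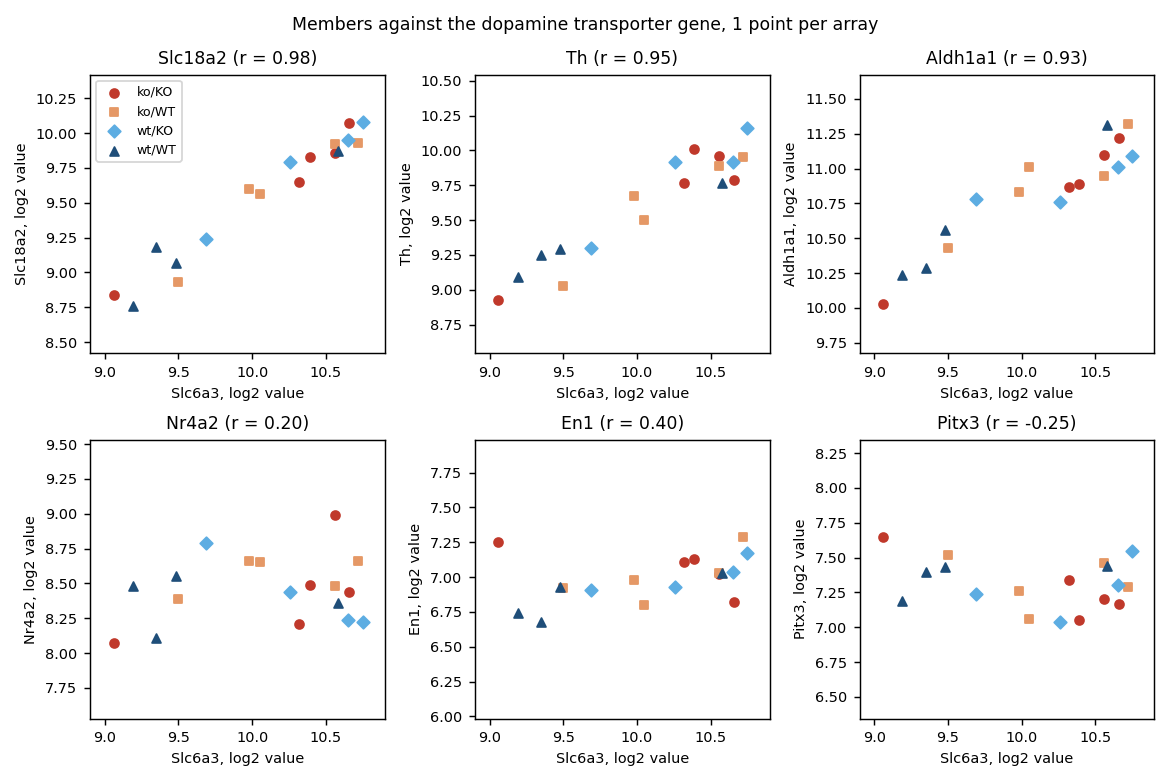
Deposited log2 values of Slc6a3 (horizontal axis) against Slc18a2, Th, Aldh1a1, Nr4a2, En1 and Pitx3 (vertical axes), 1 point per array, coloured and shaped by group. Points for Slc18a2, Th and Aldh1a1 lie close to a line (r = 0.98, 0.95 and 0.93), and those for Nr4a2, En1 and Pitx3 scatter (r = 0.20, 0.40 and -0.25).

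The principal components of the 10 genes, each scaled to equal variance, restate these same correlations and are no separate evidence of the split. The first held 57.5% of the variance and correlated with Slc6a3, Slc18a2, Th, Ddc, Aldh1a1 and Drd2 at 0.99, 0.98, 0.96, 0.95, 0.93 and 0.88. The second held 20.6%, and Pitx3 (0.79), Foxa2 (0.75) and En1 (0.56) lay on 1 side of it and Nr4a2 (-0.71) on the other.

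An array-wide measure moved with several members. The standard deviation of all values on an array ran from 1.93 to 2.04, and its r was 0.60 with Slc6a3, 0.58 with Slc18a2, 0.59 with Th, 0.64 with Ddc, 0.55 with Drd2 and 0.60 with Aldh1a1. With this measure removed from every gene by a line, the median r of the 6 transmitter pairs was 0.93, and 3.48% of all genes and again 5 members were above 0.5 with Slc6a3. The r with Slc6a3 was then -0.07 for Nr4a2 and 0.13 for Pitx3, both of which turned sign, with 0.40 for En1 and 0.36 for Foxa2. Pitx3 followed the array's median of all values at r = 0.86 and its standard deviation at -0.56.

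The genes most like Slc6a3 outside the members were Chrna6 (r = 0.96), a nicotinic receptor subunit of midbrain dopamine neurons, and Ret (0.94), the receptor for GDNF family ligands. They were followed by Ttc6 (0.91), the orphan transporter Slc10a4 (0.91), the neurokinin receptor gene Tacr3 (0.89), P3h2 (0.86), the protein kinase C gene Prkca (0.86), the synaptic vesicle gene Sv2c (0.86), Gpr158 (0.85) and the protocadherin Pcdh7 (0.84). Chrna6 ran from 6.73 to 8.22 and Slc10a4 from 6.59 to 8.06. Ttc6 was below the array's median on every array. Of these 10 genes, 7 were also among the 10 most like Slc18a2 and 7 among the 10 most like Th, with 3 for Ddc and 4 each for Drd2 and Aldh1a1. None was shared with Nr4a2, Pitx3, En1 or Foxa2.

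Among the 2 genes nearest each of the other members, some recurred. Slc18a2 and Ddc were each nearest to Chrna6 (0.97 and 0.95) and Tacr3 (0.93 and 0.93), and Th to Chrna6 (0.94) and Ret (0.93). Drd2 was nearest to Ret (0.89) and Lrrd1 (0.83), and Aldh1a1 to Ret (0.89) and the splicing kinase gene Srpk1 (0.89). Nr4a2 was nearest to Gfra1 (0.89), a GDNF co-receptor, and Prkcq (0.88). Pitx3 was nearest to Alox15 (0.92) and the olfactory receptor gene Olfr1328 (0.92), both below the array's median on every array, and 19.5% of all genes but none of the members were above 0.5 with Pitx3. En1 was nearest to Tgfb1 (0.85) and Ifi30 (0.84), and Foxa2 to the retinoic acid hydroxylase gene Cyp26b1 (0.80) and Edaradd (0.80).

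Other listed genes of midbrain dopamine neurons tended to move with Slc6a3. This list and those below were chosen with earlier results of these data known. Their correlations are therefore a description and no independent support. Of 19 measured, 8 were above r = 0.5, against the 11.5% of all genes given above, and the median was 0.47 against -0.05 over all genes. Beside Chrna6, Ret and Slc10a4 these were Bnc2 (0.82), the annexin gene Anxa1 (0.78), Gch1 (0.78), which makes the tetrahydrobiopterin cofactor of tyrosine hydroxylase, Chrnb3 (0.66) and Sncg (0.57). Bnc2 and Gch1 lay below the array's median on every array, and Gch1 below the lower quartile on 5. Anxa1 ran from 6.30 to 7.42 and was above the array's median on 4 arrays. Others stayed near 0, among them Calb1 (0.04), Foxa1 (0.04) and Gfra1 (-0.01), and Otx2 was at -0.21. With the array's standard deviation removed the median was 0.42, and 6 of the 19 were above 0.5, beside the 3.48% of all genes. Some genes of this list and the next are named beyond the stated rule, after their values were seen. The mean of the 19 ran from 7.68 to 8.14 and correlated with Slc6a3 at 0.89.

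The wider dopamine pathway stood near all genes in its r with Slc6a3. Of its 12 measured genes other than the members, 2 were above 0.5, beside 11.5% of all genes. They were Gch1, which is also on the midbrain list, and Park7 (0.55). The median was -0.01, against -0.05 over all genes. The dopamine receptor Drd1 was at -0.59 and the sepiapterin reductase gene Spr at -0.54, while the monoamine oxidases Maob and Maoa were at 0.49 and 0.36. With the array's standard deviation removed, Gch1 (0.69) and Spr (-0.52) moved little, and Drd1 (-0.25), Park7 (0.26), Maob (0.17) and Maoa (0.08) were all nearer 0. Others of the list moved away from 0, with Pts going from -0.02 to -0.50, Drd3 from 0.22 to 0.47 and Drd5 from -0.27 to -0.47. Among 14 genes of hypothalamic dopamine neurons and their neighbours the median was 0.18, or -0.09 with the standard deviation removed. Before that removal Gad1 (0.67) and Meis2 (0.61) were the highest and Onecut2 (-0.55) the lowest. After it Gad1 was at 0.51, Meis2 at 0.42 and Onecut2 at -0.42, and Gal was the lowest at -0.67, from -0.27 before.

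**Figure D4:**
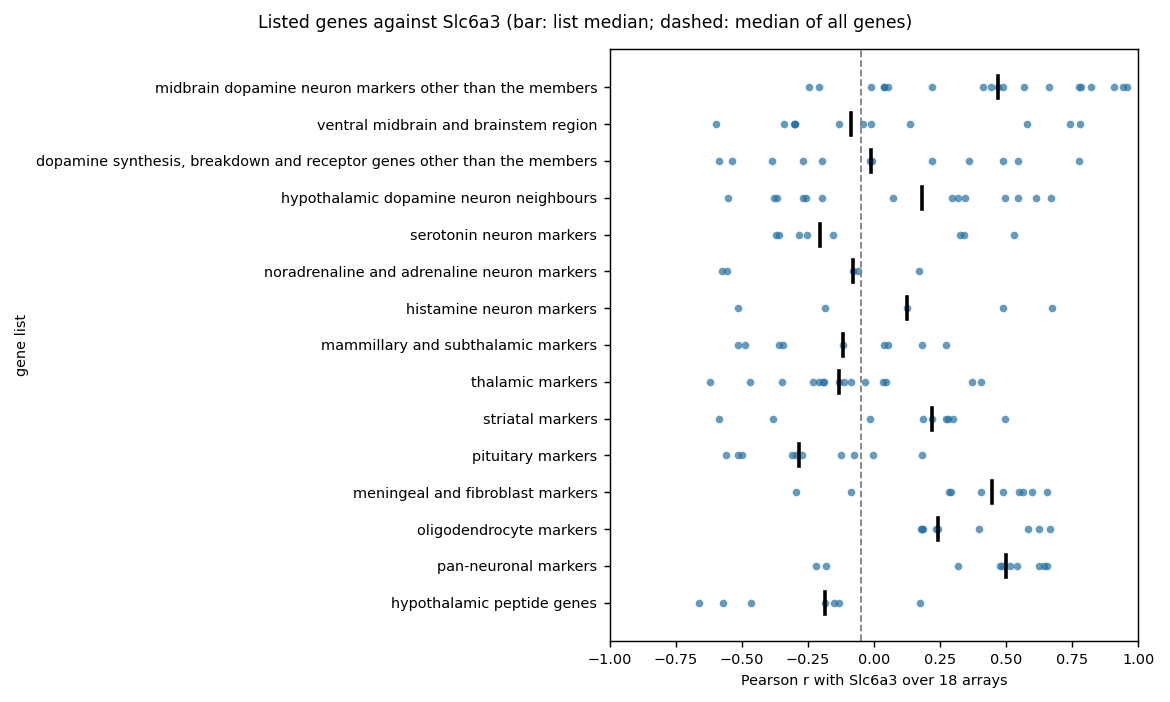
Pearson r with Slc6a3 across 18 arrays (horizontal axis) for the genes of each list other than the members, 1 point per gene, with a bar at the list median and a dashed line at the median of all genes. The medians are 0.50 for the pan-neuronal list, 0.47 for the midbrain dopamine list, 0.45 for the meningeal list and -0.01 for the dopamine pathway list.

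Markers of neighbouring regions and other cell types were set beside Slc6a3 in the same way, and their part in its variation was not tested. Each median is followed by its value with the array's standard deviation removed. Over all genes the median was -0.05 (0.0066), 9184 of 19936 were above 0, and 11.5% were above 0.5. Of 12 genes of the ventral midbrain and brainstem region 8 were negative and 3 above 0.5, with a median of -0.09 (0.28). They ran from Hoxb2 at -0.60 to Meis1 at 0.74 and Chrna5 at 0.78, which lay below the array's median on every array. The median was 0.50 (0.30) over 10 pan-neuronal genes, of which 5 were above 0.5 and whose mean ran from 10.99 to 11.24. It was 0.45 (0.48) over 10 meningeal and fibroblast genes, 4 of them above 0.5, led by Dcn (0.65) and Igf2 (0.60), whose mean ran from 7.11 to 7.66. Medians were 0.24 (0.28) over 9 oligodendrocyte genes, 0.22 (-0.08) over 9 striatal genes, 0.12 (-0.09) over 5 histamine neuron genes and -0.08 (0.10) over 5 noradrenaline neuron genes. They were -0.12 (0.0040) over 9 mammillary and subthalamic genes, -0.13 (-0.20) over 15 thalamic genes, -0.21 (0.09) over 8 serotonin neuron genes and -0.29 (-0.01) over 10 pituitary genes. The sign therefore turned for the brainstem, striatal, histamine, noradrenaline, mammillary and serotonin lists, and no direction is read from them. The serotonin enzyme gene Tph2 alone of the serotonin list was above 0.5 (0.53), and it ran from 5.61 to 8.06. With the array's standard deviation removed, 2 genes of the 8 were above 0.5, Tph2 (0.65) and the serotonin transporter gene Slc6a4 (0.58, from 0.34 before).

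By the title ending, no member passed the test. Slc6a3 averaged 10.18 ± 0.54 (SD, n = 10) on arrays ending in ko, and those ending in wt averaged 9.99 ± 0.64 (SD, n = 8). The difference was 0.19 (SE 0.241, 95% interval -0.31 to 0.69, limma adjusted p = 0.903), so the interval allows a difference of up to 0.69 log2 units. It was 0.11 for En1 (SE 0.073, limma adjusted p = 0.884) and -0.14 for Foxa2 (SE 0.084, limma adjusted p = 0.884). Of the 10 members 0 passed, beside 0% of all 19937 genes, and 0 reached an unadjusted p under 0.05, beside 4.63% of all genes. The mean was higher with the ending ko for 8 members and lower for 2, beside 10318 higher of all 19937 genes. The median was 0.11 against 0.003 over all genes. Slc6a3, Slc18a2, Th, Ddc, Drd2 and Aldh1a1, all among the higher, varied together, so the members are not separate observations. The Slc6a3 difference fell to 0.07 without array wt/WT 1 and reached 0.31 without ko/KO 2. With the array's standard deviation as a term it was 0.06. Of the midbrain dopamine list, 12 of 19 had the higher mean with ko, beside the 10318 of 19937 genes, and 0 passed. Ntsr1 (0.11, SE 0.059) and Sncg (0.14, SE 0.080) had the smallest p, and 0 of the 19 reached an unadjusted limma p under 0.05. Of the pathway list 7 of 12 had the higher mean, beside that same count of all genes, and 0 passed. Slc18a1 was at -0.14 (SE 0.076) and Drd1 at -0.10 (SE 0.062).

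By the genotype field, the mean of Slc6a3 was 10.26 ± 0.55 (SD, n = 9) under KO, while under WT it was 9.93 ± 0.58 (SD, n = 9). The difference was 0.33 (SE 0.232, limma adjusted p = 0.724), with 0.28 (SE 0.177) for Slc18a2, 0.26 (SE 0.152) for Th and 0.20 (SE 0.143) for Ddc. No member passed, beside 0% of all genes, and 0 members reached an unadjusted p under 0.05, beside 6.95% of all genes. The groups of every member overlapped. Of the midbrain dopamine list, 15 of 19 had the higher mean with KO, beside 9403 of all 19937 genes. Of the 19, 6 reached an unadjusted limma p under 0.05, beside 6.95% of all genes, and 0 passed. These genes tended to vary with Slc6a3, so they are not separate observations. The Slc6a3 difference ran from 0.23 without array wt/WT 1 to 0.48 without ko/KO 2. With the array's standard deviation as a term the differences were 0.12 for Slc6a3, 0.12 for Slc18a2, 0.13 for Th and 0.07 for Ddc.

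Where the labels agree, the ko/KO arrays averaged 10.20 ± 0.65 (SD, n = 5) for Slc6a3, while the wt/WT arrays averaged 9.65 ± 0.63 (SD, n = 4). The difference of 0.55 (SE 0.313, limma adjusted p = 0.510) was accompanied by 0.43 (SE 0.235) for Slc18a2, 0.34 (SE 0.194) for Th and 0.35 (SE 0.190) for Ddc. The Slc6a3 difference ran from 0.39 without array wt/WT 1 to 0.86 without wt/WT 4, and that of Slc18a2 from 0.28 to 0.65 without the same arrays. That of Th ran from 0.26 without wt/WT 1 to 0.53 without ko/KO 2, and that of Ddc from 0.23 without ko/KO 5 to 0.52 without wt/WT 4. With the array's standard deviation as a term the 4 differences were 0.07 for Slc6a3, 0.11 for Slc18a2, 0.05 for Th and 0.11 for Ddc. En1 was 7.07 ± 0.16 (SD, n = 5) against 6.85 ± 0.16 (SD, n = 4), a difference of 0.22 (SE 0.101). It was the 1 member at an unadjusted p under 0.05, beside 11.1% of all genes, and its limma adjusted p was 0.443. None passed after adjustment, beside 0% of all genes. Of the midbrain dopamine list, 15 of 19 had the higher mean with ko/KO, beside 9870 of all 19937 genes. Of the 19, 4 reached an unadjusted limma p under 0.05, beside the 11.1% of all genes, and 0 passed.

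Where the labels contradict each other, the means of the transmitter genes lay the other way by the title ending. By the genotype field they lay the same way as on the agreeing arrays, higher under KO for all 4 genes. Slc6a3 averaged 10.16 ± 0.49 (SD, n = 5) over the ko/WT arrays, while over wt/KO it averaged 10.34 ± 0.48 (SD, n = 4). The difference was -0.18 (SE 0.258, limma adjusted p = 0.9998), with -0.18 for Slc18a2, -0.22 for Th and -0.11 for Ddc. It moved from -0.39 without array wt/KO 3 to -0.01 without ko/WT 2. No member passed, beside 0% of all genes, and 0 reached an unadjusted p under 0.05, beside 2.74% of all genes. Of the midbrain dopamine list, 13 of 19 had the lower mean with ko/WT, beside 9371 of all 19937 genes. Of the 19, 2 reached an unadjusted limma p under 0.05, beside the 2.74% of all genes, and 0 passed.

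Whether the effect of the ending differs between the fields was tested directly. For Slc6a3 the ending effect in field KO minus that in field WT was -0.65 (SE 0.459, 95% interval -1.61 to 0.31, limma adjusted p = 0.927). For Drd2 it was -0.28 (SE 0.137, limma adjusted p = 0.927, unadjusted p = 0.054), the smallest p of the 10 members. No member passed, beside 0% of all genes, and 0 reached an unadjusted p under 0.05, beside 5.18% of all genes. The Slc6a3 value ran from -0.96 without array wt/WT 4 to -0.37 without ko/KO 2.

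**Figure D5:**
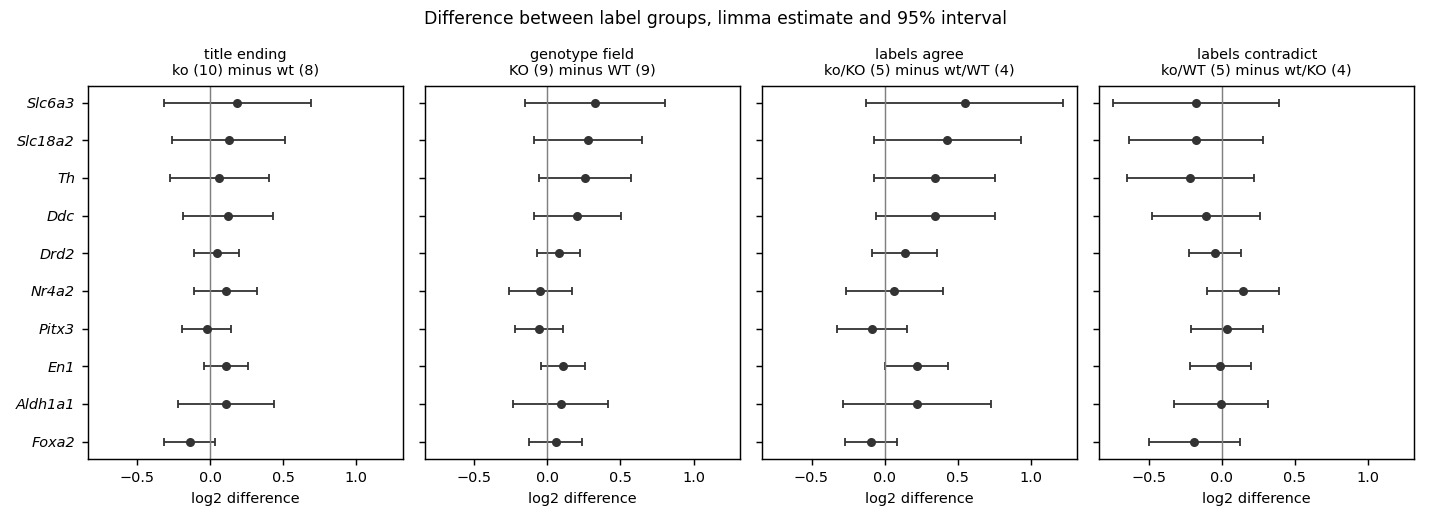
Differences between labels in log2 units with 95% intervals from limma (horizontal axis), for each of the 10 genes in the 4 comparisons of labels, with 1 panel per comparison. All intervals for Slc6a3, Slc18a2, Th and Ddc include 0, that of En1 on the agreeing arrays does not before adjustment, and none of the 10 genes passed after it.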

How the data were processed

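Total RNA from hypothalamus was labelled by a whole-transcript protocol on 18 arrays, per the labels' protocols. The authors deposited log2 expression values, per the values' range of 1.11 to 14.54. RMA and MAS5 appear in the submitters' processing notes without role or order, so background correction is not known in detail. Of 34760 probesets, 21640 had 1 gene symbol, 1321 several and 11799 none, and the brightest per gene gave 19937 genes. Names matched RefSeq GRCm38.p6 by Entrez identifier for 21553 probesets and changed 0 symbols. No other sample's columns were used.

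Differences were fitted on all genes with limma (3.58.1, R 4.3.3), with Benjamini-Hochberg adjustment and a threshold of 0.05, and the script was tested on simulated arrays with 200 moved genes. Pearson r was computed with Python 3.11.15. Alternatives were Spearman's rho, quantile normalization, the mean of a gene's probesets, an intensity trend in eBayes, the other label as a term, leaving out the dimmest 40% of genes (which leaves 9 members, without En1), leaving out each array, and the array's standard deviation as a term. The rule was to name the 10 members, the 10 genes most like Slc6a3 and 2 for each other member. In each of 14 lists it allowed up to 2 by r and up to 2 by p for the ending. Only the midbrain dopamine and pathway lists had genes named by p. None was named by r in the thalamic, striatal, pituitary, histamine, noradrenaline, mammillary, oligodendrocyte and pan-neuronal lists. Those left out by p included Lmx1b, Barhl1, Zmat4, Synpo2 and Gh. Their ko minus wt differences were -0.18 (SE 0.065), -0.15 (SE 0.059), 0.12 (SE 0.051), 0.15 (SE 0.064) and -0.22 (SE 0.102) log2 units. Other listed genes were named after their values were seen. The members and lists were chosen with earlier results of these data known. A list of hypothalamic peptide genes, the array-SD alternatives, the correlations within sets of labels and the motifs were added after seeing the data.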

Additional observations from a re-analysis of the deposited data

Results flagged for a closer look

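Within the 4 label groups, 40 combinations of member and group were examined for a single array far from the rest, and 5 were found. Chance gives about 1 in 20. Slc6a3 on ko/KO 2 was 9.06, with the nearest array of its group at 10.32, and Th on the same array was 8.93, with the nearest at 9.77. Ddc on wt/KO 3 was 9.12, with the nearest at 9.64. The other 2 were transcription factor genes: Foxa2 on ko/WT 5 was 6.76 (nearest 7.16) and Pitx3 on wt/WT 1 was 7.19 (nearest 7.40). Arrays ko/KO 2 and wt/KO 3 are among the 6 lowest in Slc6a3.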

How the results depend on the processing

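The median r of the 6 transmitter pairs was 0.87 with Spearman's rho, from 0.94 to 0.96 when each array was left out and 0.93 with the array's standard deviation removed. That of the identity pairs ran from 0.01 to 0.13 when each array was left out, and was 0.17 with the standard deviation removed. Between the sets it ran from 0.13 to 0.23 and was 0.49 within the contradicting arrays. The count of members called was 0 under every alternative run, over 9 members where the dimmest genes were left out. The limma adjusted p-values of members over the alternatives ran from 0.581 by ending, 0.365 by field, 0.111 for agreeing labels and 0.890 for contradicting labels. For the difference of effects only those of Slc6a3 and Drd2 were followed, and they ran from 0.563. With the array's standard deviation as a term, the sign turned for Th (-0.023) and Pitx3 (0.014) by ending, for Pitx3 (0.0088) and Aldh1a1 (-0.061) by field, for Nr4a2 (-0.11), Pitx3 (0.012) and Aldh1a1 (-0.15) where labels agree, and for Pitx3 (-0.056) where they contradict. Quantile normalization turned Aldh1a1 to 0.010 on the contradicting arrays. The cause was not tested. Leaving out 1 array moved Th by ending from -0.0086 to 0.14, Pitx3 by ending from -0.064 to 0.0086, Foxa2 by field from -0.0018 to 0.092 and Nr4a2 on the agreeing arrays from -0.072 to 0.16. On the contradicting arrays it moved Ddc from -0.25 to 0.03, Pitx3 from -0.045 to 0.12, En1 from -0.080 to 0.044 and Aldh1a1 from -0.11 to 0.12. No paired analysis was possible because the labels give no replicate numbers shared between groups. The number of arrays, the contradicting labels and the dim probesets of Pitx3, En1 and Foxa2 limit what these data can show.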

Other observations

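Genes of hypothalamic peptide neurons, listed after the data were seen, mostly had negative correlations with Slc6a3 (6 of 7). So did the pituitary (9 of 10) and thalamic (11 of 15) lists, and over all genes 9184 of 19936 were above 0. Of 7 measured, 6 lay above the upper quartile of the array on all 18 arrays: Avp (vasopressin), Oxt (oxytocin), Pmch (melanin-concentrating hormone), Hcrt (hypocretin), Npy (neuropeptide Y) and Trh (thyrotropin-releasing hormone). Crh, at 5.77 to 6.64, did not. Oxt ran from 10.02 to 11.15 and Hcrt from 9.11 to 10.06, and their r with Slc6a3 was -0.66 and -0.57. The r of Oxt was -0.72 with Aldh1a1, -0.64 with Ddc and -0.47 with Th, and 0.27 with Pitx3 and -0.05 with En1. The median over the 7 genes was -0.19, and -0.54 with the standard deviation of each array removed. By the title ending 0 of the 7 passed limma's adjusted threshold and 0 reached an unadjusted p under 0.05.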
